A study of Mus musculus with 18 samples.

Results

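Mouse embryonic fibroblasts (MEFs) labelled Ago2+/+ were compared after treatment with tunicamycin or with its solvent DMSO, by RNA sequencing. The comparison comprised the 6 libraries of these 2 groups, 3 in each, out of 18 libraries in 6 groups, and was chosen by the group names in the deposited table. The other 4 groups were Ago2+/+ MEFs with thapsigargin (500 nM) and Ago2-/- MEFs with DMSO, tunicamycin or thapsigargin. Ago2 is the Argonaute protein that cleaves RNAs in RNA interference, and the study asked whether it lowers RNAs of endoplasmic reticulum (ER) proteins during ER stress. The labels give neither the dose nor the duration of the tunicamycin treatment, but the study's methods for RNA sequencing of MEFs state 3 µg/ml for 6 h. Those methods call the control cells untreated, whereas the labels name DMSO. The Ago2+/+ and Ago2-/- MEFs are 2 cell lines obtained from another laboratory, and no line was authenticated, although the study tested the Ago2-/- MEFs for loss of the AGO2 protein by western blot. That test was of protein, and the values below are of RNA.

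Tunicamycin inhibits Dpagt1, the enzyme that starts the N-glycan precursor, so that glycoproteins fail to fold in the ER. Misfolded proteins in the ER lumen activate 3 sensors, IRE1, PERK and ATF6, and together their signalling is called the unfolded protein response. IRE1 splices Xbp1 RNA and cleaves other RNAs at the ER, PERK slows translation and favours Atf4 and Ddit3 (CHOP), and ATF6 is released to the nucleus to raise ER chaperones such as Hspa5 (BiP). Fibroblasts carry this machinery at a high level because they secrete collagen and other matrix proteins.

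The labels did not identify these libraries without conflict, and the measured values did not follow them. In titles and table the groups labelled Ago2+/+ are named DCR1, for a reason not given in the sources used here. Their 3 replicate 2 libraries carry -/- in the source label and +/+ in the genotype label, and replicate 3 of the Ago2-/- DMSO group has the same conflict. The deposited table holds 1 pooled value per group, so no library could be left out. The groups are therefore named by their labels throughout, and "the tunicamycin group" and "the DMSO group" stand for the groups labelled Ago2+/+ with these treatments.

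Ago2 itself, at chr15:73090392-73184840 on build GRCm38, which holds for all loci below, stood at 22.1 FPKM (fragments per kilobase, scaled to the mapped fragments of a library) in the DMSO group and at 5.75 in the tunicamycin group. Its level was 17.0 in the Ago2+/+ thapsigargin group and, under the Ago2-/- label, 5.61 with DMSO, 15.5 with tunicamycin and 20.7 with thapsigargin. The tunicamycin group thus matched the Ago2-/- DMSO group, and the other groups labelled Ago2-/- lay near the DMSO group. Xist, the RNA that coats the inactive X chromosome, shared a locus with Gm27733 and Gm27927. That locus was at 46.6 FPKM in the DMSO group, 33.5 in Ago2-/- thapsigargin and at most 0.0574 in the remaining 4 groups. In the DMSO and tunicamycin groups 4 genes of the Y chromosome, Eif2s3y, Ddx3y, Uty and Kdm5d, stood at exactly 0, and Ddx3y reached 23.3 FPKM in Ago2+/+ thapsigargin and 24.7 in Ago2-/- tunicamycin.

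Over the 10293 loci that reached 1 FPKM in every group, Spearman's rho between the levels of the tunicamycin and DMSO groups was 0.921. It was 0.991 between the tunicamycin group and Ago2-/- DMSO, and 0.983 between the DMSO group and Ago2-/- thapsigargin. All groups were quantified on the same loci by the authors, and these values describe the libraries without a test. Between the tunicamycin and Ago2-/- DMSO groups 215 of 11731 loci (1.83%) differed by at least 2-fold. The part that the treatment and the part that anything else setting these libraries apart took in the differences below cannot be told apart.

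Fibroblast markers were unevenly present. Vim, the mesenchymal intermediate filament, was at 1439 and 2634 FPKM in the DMSO and tunicamycin groups, whereas Thy1 was listed at 0 in all 6 groups and Dcn and Fap stayed below 1 FPKM in both. An exact 0 in this table need not mean absence, since Dgcr8, a general factor of microRNA processing, was also listed at 0 in all 6 groups, and the respiratory chain gene Ndufs3 in 5 of them. The 9 of 10 fibroblast markers with a locus of their own summed to 1651 and 2685 FPKM, and of the 6 that were kept by the rule given below 1 was higher and 3 were lower. Of 7 macrophage markers Cd68 alone reached 1 FPKM (1.77 and 1.13), and the 7 summed to 2.17 and 1.40. No endothelial (of 6) or adipocyte (of 5) marker reached 1 FPKM in either group. The keratin Krt19 was at 3.43 and 0.703 FPKM, and no other of 8 epithelial markers reached 1. In such bulk samples, fewer cells of a type and less RNA per cell cannot be told apart.

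The tunicamycin and DMSO groups differed by at least 2-fold at 1 in 5 measured loci, in both directions. A difference is given as log2 of tunicamycin FPKM plus 0.1 over DMSO FPKM plus 0.1, which understates the difference of low genes, and "higher" or "lower" as a count means an absolute log2 of at least 1. Of 51499 loci, 12257 had at least 1 FPKM in either group and were kept. Among them 1308 were higher with tunicamycin (10.7%) and 1141 were lower (9.31%), together 2449 (20.0%). Each list count below is to be read beside these shares, against which no list was tested. At 4-fold the counts were 661 higher and 569 lower. The median log2 over all loci kept was 0.01, with quartiles of -0.39 and 0.40, so the bulk of loci was centred on no difference. In 647 of the 1308 higher loci the DMSO value was below 1 FPKM, and in 601 of the 1141 lower loci the tunicamycin value was. The threshold itself had no gap, with absolute log2 values of 1.0005 just inside and 0.9998 just outside. With 1 value per group there is no replicate check, no test was made, and the depth of the libraries is unknown. Libraries labelled as replicates, which the study describes in general as biological, were pooled by the authors.

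**Figure D1:**
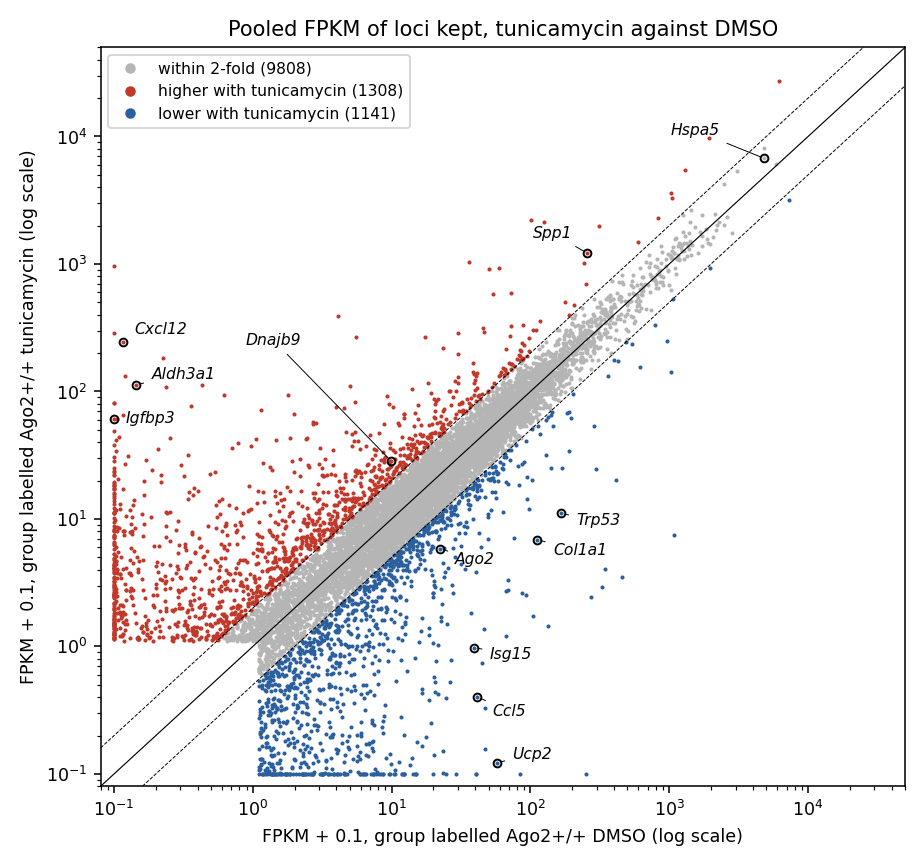
Pooled FPKM plus 0.1 of the 12257 loci kept, DMSO group on the x axis and tunicamycin group on the y axis, both on log scales. Each point is a locus, dashed lines mark 2-fold, and colours separate the 1308 higher and 1141 lower loci from those within 2-fold. Hspa5 lies at the abundant end inside the dashed lines, whereas Cxcl12 and Igfbp3 lie at the left edge and Ccl5 and Isg15 far below the diagonal.

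ER chaperones, disulfide isomerases and the PERK arm differed little between the 2 groups, whereas the sensor genes Atf6 and Ern1 and the substrates of IRE1 were past 2-fold. Of 13 ER chaperones and co-chaperones with a locus of their own, all at 1 FPKM or more, 1 was higher and none was lower, with a median log2 of 0.10. Hspa5, the ER Hsp70 chaperone that also holds the stress sensors inactive, lies at chr2:34771970-34777547. It was at 4808 FPKM in the DMSO group and 6746 in the tunicamycin group (log2 0.49), beside 5367 in Ago2+/+ thapsigargin and, under the Ago2-/- label, 7682 with DMSO, 5155 with tunicamycin and 3677 with thapsigargin. The highest value thus belonged to a group labelled as solvent, and the tunicamycin value lay second to it. The chaperone past 2-fold was Dnajb9, an Hsp70 co-chaperone that restrains IRE1, with 9.86 FPKM in DMSO and 28.2 with tunicamycin (log2 1.51). Its level in the other groups was 31.4 in Ago2+/+ thapsigargin and, under the Ago2-/- label, 29.0 with DMSO, 35.7 with tunicamycin and 9.05 with thapsigargin. Both groups low in Dnajb9 were those that held Xist.

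The remaining ER chaperones lay on either side of 0. Creld2, a secreted ER stress protein, was at 211 and 394 FPKM (log2 0.90), Dnajc3, which limits PERK signalling, at 45.6 and 71.1 (0.64), and Sdf2l1 at 164 and 211 (0.37). Hsp90b1, the ER Hsp90, was at 2063 and 1623 FPKM (-0.35) and the lectin chaperone Calr at 1871 and 1580 (-0.24). The ER disulfide isomerases and oxidases followed with 0 of 11 members past 2-fold and a median log2 of 0.24. Their extremes were Txndc11 at 18.9 and 27.9 FPKM (0.56) and the oxidase Ero1lb at 13.4 and 6.77 (-0.97).

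The ER stress response element (ERSE), through which ATF6 with NF-Y acts on chaperone genes, was looked up in the 250 bases before each start site in the RefSeq promoter table (GRCm38.p6). The letters searched on both strands were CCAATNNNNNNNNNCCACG, which 0.113% of all 32851 windows held. Of 11 ER chaperones with an entry 6 held it, namely Calr, Canx, Creld2, Dnajc3, Hsp90b1 and Hspa5, and none of these was past 2-fold. Here and for the elements below, a gene counted if any of its windows matched, whereas the shares of all windows count single windows. A gene with several windows thus had more opportunities to match. The Hspa5 window (+ strand) is shown because this gene is the most abundant chaperone, with the match, which begins 65 bases before the start, in capitals.
Hspa5, chr2:34771840-34772089: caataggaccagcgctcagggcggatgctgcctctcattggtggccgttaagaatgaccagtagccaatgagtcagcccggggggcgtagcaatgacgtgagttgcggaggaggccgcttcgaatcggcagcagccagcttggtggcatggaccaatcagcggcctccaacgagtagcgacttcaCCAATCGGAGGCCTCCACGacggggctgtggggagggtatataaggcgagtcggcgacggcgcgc

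Genes of the IRE1 arm and of ER-associated degradation showed 1 lower and 0 higher among 16 kept of 17, with a median log2 of 0.05. The lower gene was Ern1, which encodes IRE1 itself, at 42.8 FPKM in DMSO and 18.4 with tunicamycin (log2 -1.21). Xbp1, its splicing target, was at 91.6 and 74.9 (-0.29), a total that does not separate spliced from unspliced RNA. The ubiquitin ligase Syvn1 (Hrd1) was at 61.4 and 107 FPKM (0.79) and its conjugating enzyme Ube2j1 at 37.4 and 66.7 (0.83), both short of 2-fold. Herpud1, a scaffold of the same complex, was at 293 and 349 (0.25) and the mannosidase-like Edem1 at 42.5 and 40.1 (-0.08). Derl3 was listed at 0 in both groups.

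Among 6 genes described as substrates of IRE1 cleavage in other cells, 5 had a locus of their own and all 5 were past 2-fold, 3 higher and 2 lower. Scara3 was at 0.00632 and 1.52 FPKM, Pdgfrb at 0.540 and 9.13 (log2 3.85) and the myelin protein gene Pmp22 at 1.63 and 8.77 (2.36). Hgsnat, a lysosomal acetyltransferase, was at 18.3 and 7.64 (-1.25) and Col6a1 at 23.8 and 11.7 (-1.02, but -0.97 with a pseudocount of 1 FPKM). The substrate locus shared by Bloc1s1 and Rdh5 was at 59.9 and 28.0 (-1.09). These genes had no common direction, and Pdgfrb and Col6a1 are also lineage genes of fibroblasts.

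The PERK arm had 14 members kept of 15, of which 1 was higher and none lower, with a median log2 of 0.11. Ddit3, the transcription factor CHOP, was at 237 FPKM in DMSO and 282 with tunicamycin (log2 0.25), beside 345, 339, 349 and 253 in Ago2+/+ thapsigargin and Ago2-/- DMSO, tunicamycin and thapsigargin. Atf4 was at 394 and 528 (0.42), the glutathione-degrading Chac1 at 95.6 and 93.2 (-0.04), and the pseudokinase Trib3 at 118 and 146 (0.30). Atf3 was at 29.7 and 29.5 (-0.01) and Ppp1r15a (GADD34), which reverses eIF2alpha phosphorylation, at 94.5 and 81.0 (-0.22). All of these usual readouts of PERK signalling were thus abundant in the DMSO group and within 2-fold of it in the tunicamycin group. The member past 2-fold was the lipoprotein receptor Vldlr, at 0.565 and 3.68 FPKM (2.51). Cebpb was at 21.0 and 39.9 (0.92).

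Of 6 genes of the ATF6 branch and its proteases 2 were higher. Atf6 was at 32.3 FPKM in DMSO and 68.1 with tunicamycin (log2 1.07), with 66.6 in Ago2-/- DMSO and 24.8 to 30.2 in the other 3 groups. Creb3l1, a related ER membrane factor of collagen-secreting cells, was at 0.124 and 1.08 (2.40), against 51.2 in Ago2+/+ thapsigargin and 53.3 in Ago2-/- tunicamycin. Creb3l1 was within 2-fold with a pseudocount of 1 FPKM (0.89), which left Atf6 as the higher member. Amino acid supply genes, many of them ATF4 targets, had 1 higher and 1 lower among 15 kept of 17, with a median log2 of 0.21. Slc7a11, the cystine importer, was at 7.45 and 18.5 FPKM and Cth, which makes cysteine, at 50.0 and 22.7 (-1.13). Asns was at 150 and 184 (0.29) and Phgdh at 438 and 725 (0.73). None of 19 tRNA synthetases was past 2-fold, their log2 values running from -0.47 (Hars) to 0.86 (Dars) with a median of 0.25.

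The CARE element, where ATF4 pairs with C/EBP factors, was searched as TGATGNAA on both strands of the same windows, and 3.45% of all windows held it. It was found for 5 of 13 PERK arm genes with an entry (Atf3, Chac1, Fgf21, Nupr1 and Vldlr), 3 of 13 amino acid supply genes (Asns, Pycr1 and Slc7a11) and 2 of 11 synthetases. The Slc7a11 window (- strand) is shown as that of a target past 2-fold, with its 2 matches, 1 on each strand, in capitals.
Slc7a11, chr3:50443614-50443863: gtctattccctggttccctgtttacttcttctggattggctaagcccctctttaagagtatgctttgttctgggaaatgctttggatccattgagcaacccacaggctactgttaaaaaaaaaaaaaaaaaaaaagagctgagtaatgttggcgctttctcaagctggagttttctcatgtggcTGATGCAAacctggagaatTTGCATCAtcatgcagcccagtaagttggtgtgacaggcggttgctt

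Genes that build and trim N-glycans, the process tunicamycin blocks, were nearly level. Of 37 with a locus of their own, all kept, 1 was higher and none lower, with a median log2 of 0.04. Dpagt1, the target of tunicamycin, was at 19.6 FPKM in DMSO and 17.6 with tunicamycin (-0.16). Alg2, a mannosyltransferase of the precursor, was the member past 2-fold, at 9.84 and 25.8 (1.38), with 26.9 in Ago2-/- DMSO and 7.16 in Ago2-/- thapsigargin. The oligosaccharyltransferase subunits Rpn2 (270 and 238 FPKM) and Stt3a (145 and 173) stayed within 2-fold.

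ER import and vesicle transport had 1 higher and 0 lower of 45, with a median log2 of 0.20. The member past 2-fold was Srp54a, a signal recognition particle subunit with close copies, at 3.77 and 8.14 FPKM (1.09, but 0.94 with a pseudocount of 1 FPKM). Sec61b, a subunit of the translocation channel, was at 114 and 185 (0.70) and Sec24d, a coat subunit, at 50.6 and 87.4 (0.79). Of 15 genes of ER calcium handling 1 was higher and 2 were lower, about as often as the 20.0% of all loci past 2-fold. The calcium sensor Stim2 was at 19.5 and 7.87 FPKM, the channel Orai1 at 14.8 and 6.57 (-1.16), and the release channel Itpr2 at 2.54 and 6.44 (1.31). Atp2a2, the ER calcium pump, was at 272 and 240 (-0.18).

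**Figure D2:**
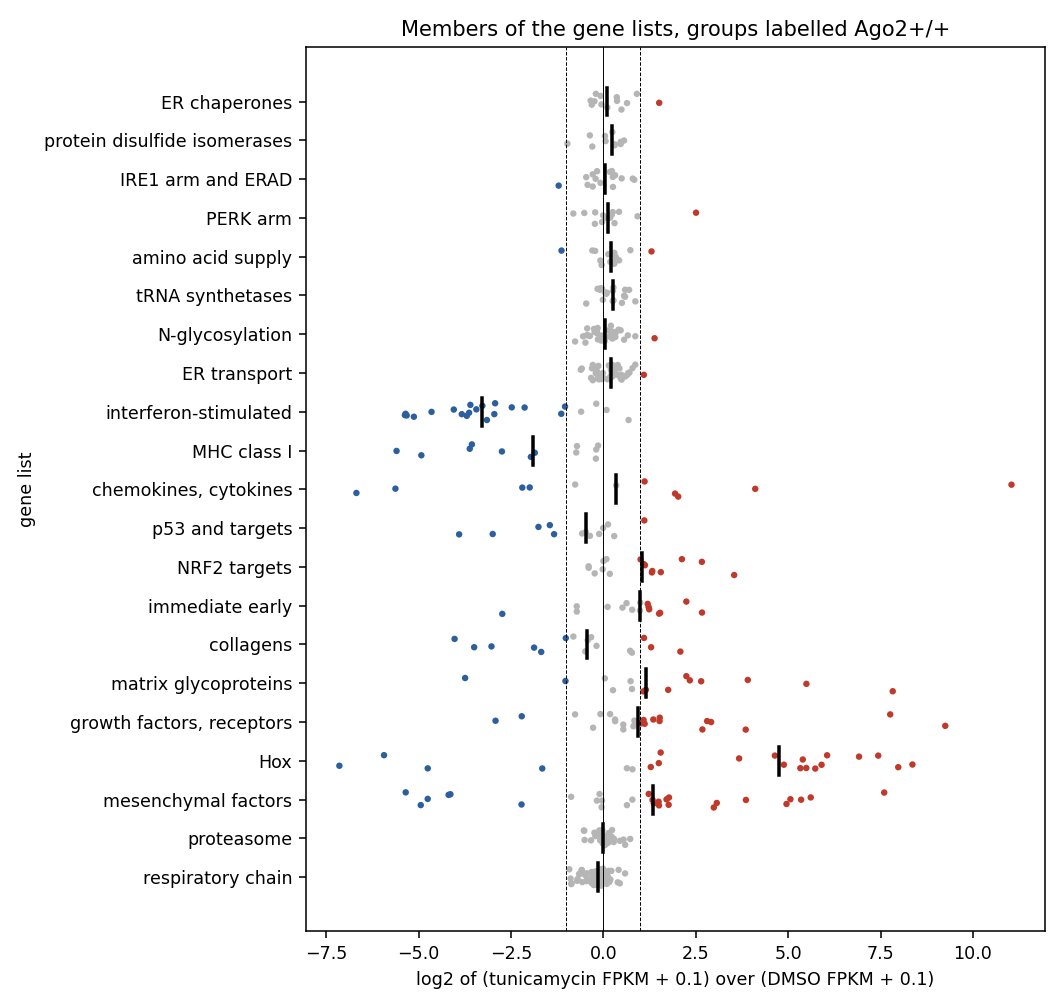
Log2 of tunicamycin over DMSO (x axis, FPKM plus 0.1) for the members of 21 gene lists (rows) with their own locus and at least 1 FPKM in either group. Points are genes, red at 2-fold higher or more, blue at 2-fold lower or more, and black bars are medians. The 8 uppermost rows, from ER chaperones to ER transport, have medians of 0.04 to 0.25, whereas interferon-stimulated, MHC class I, Hox and matrix genes spread over many fold.

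Interferon-stimulated genes (ISGs) were much lower with tunicamycin. ISGs encode antiviral effectors and are switched on by type I interferon. Of 34 ISGs with a locus of their own 23 were kept, and 19 of these were lower, none was higher. The median log2 of those kept was -3.28, but -1.44 with a pseudocount of 1 FPKM. The other 11 were below 1 FPKM in both groups. Over all loci kept, 9.31% were lower. Several lower ISGs, among them Isg15, Oasl2, Ifit1 and Irf7, were below 1 FPKM with tunicamycin. Such genes were kept through their DMSO value alone, and so could not be called higher. Isg15, a ubiquitin-like protein that is attached to other proteins, was at 39.2 FPKM in the DMSO group and 0.881 in the tunicamycin group (log2 -5.32). Its level was 2.34 in Ago2+/+ thapsigargin and, under the Ago2-/- label, 1.43 with DMSO, 5.56 with tunicamycin and 21.4 with thapsigargin. The DMSO and Ago2-/- thapsigargin groups were thus the high ones, and the tunicamycin group was the lowest of 6.

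Other ISGs had the same order. Oasl2 was at 8.53 and 0.108 FPKM (log2 -5.37), with 4.68 in Ago2-/- thapsigargin and at most 0.603 elsewhere. Ifit1, which binds foreign RNA ends, was at 7.12 and 0.0767 (-5.35), with 4.51 in Ago2-/- thapsigargin. The most abundant members were Ifi27 at 76.4 and 6.95 (-3.44) and Bst2 (tetherin), which holds budding virus at the membrane, at 63.5 and 11.3 (-2.48). The factor Irf7 was at 3.86 and 0.0575 (-4.65) and Stat2 at 6.54 and 3.13 (-1.04, but -0.87 with a pseudocount of 1 FPKM). Within 2-fold stayed Ifit2 (11.3 and 7.37), Irgm1 (3.60 and 3.14), Rtp4 (5.23 and 5.55) and Irf1 (16.3 and 26.1). ISG families such as Oas1a and Oas1b or Ifit3 and Ifit3b are near copies, and reads could be split between them.

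The interferon-stimulated response element (ISRE), bound by factors that interferon activates, was searched as GAAANNGAAA on both strands. It was held by 9 of the 16 kept ISGs with an entry and by 8 of the 13 that were lower, and by 2.98% of all windows. The windows of Isg15 (- strand) and Ifit1 (+ strand) are shown as those of 2 of the lowest ISGs. Isg15 held 3 overlapping matches, and the 2 of Ifit1 lie on the opposite strand.
Isg15, chr4:156200819-156201068: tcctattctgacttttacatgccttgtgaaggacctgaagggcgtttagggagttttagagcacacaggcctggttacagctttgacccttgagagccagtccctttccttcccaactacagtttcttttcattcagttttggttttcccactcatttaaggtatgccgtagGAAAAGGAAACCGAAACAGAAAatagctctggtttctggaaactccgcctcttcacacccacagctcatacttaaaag
Ifit1, chr19:34640639-34640888: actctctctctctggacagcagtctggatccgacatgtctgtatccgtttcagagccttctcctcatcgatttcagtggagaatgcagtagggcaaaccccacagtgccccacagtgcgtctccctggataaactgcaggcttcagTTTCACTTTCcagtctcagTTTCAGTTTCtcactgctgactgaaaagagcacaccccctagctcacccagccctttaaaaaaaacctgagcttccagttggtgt

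Sensors of foreign nucleic acid and antigen presentation genes were lower in part. Over all loci kept, 9.31% were lower. Of 12 sensor and signalling genes kept 4 were lower and none was higher. Ifih1 (MDA5), which senses long double-stranded RNA, was at 6.81 FPKM in DMSO and 0.0748 with tunicamycin (log2 -5.30), and Tmem173 (STING), an ER protein that acts behind the DNA sensor cGAS, at 26.6 and 0.686 (-5.08). Ddx58 (RIG-I) was at 12 and 5.45 (-1.12), whereas the adaptor Mavs was at 17.2 and 28.1 (0.71). Of 12 genes of MHC class I presentation kept, 7 were lower and none was higher. Their median log2 was -1.91, but -1.52 with a pseudocount of 1 FPKM. H2-D1 was at 170 and 25.2 FPKM (-2.75), H2-K1 at 68.3 and 18.8 (-1.86), and H2-Q4 at 18.4 and 0.281 (-5.60), with the caution that these genes are near copies. Their activator Nlrc5 was at 3.26 and 0.0104 (-4.93) and the peptide transporter Tap1 at 2.54 and 0.115 (-3.62). The light chain B2m was at 356 and 217 (-0.72). Ifih1, Tmem173, H2-Q4, Nlrc5, Tap1, Tap2 and H2-T23 were below 1 FPKM with tunicamycin. They were kept through their DMSO value alone, and so could not be called higher.

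Chemokines and cytokines were split, with 5 higher and 4 lower of 11 kept (10.7% and 9.31% over all loci). Ccl5, a T cell attractant, was at 41.3 and 0.302 FPKM (log2 -6.68) and Cxcl10, an interferon-induced chemokine, at 26.0 and 0.429 (-5.63). In the opposite direction Cxcl12, the stromal ligand of CXCR4 (chr6:117168535-117181367), was at 0.0157 FPKM in DMSO and 244 with tunicamycin (11.04). It was at 237 in Ago2+/+ thapsigargin and, under the Ago2-/- label, 194 with DMSO, 245 with tunicamycin and 0.0127 with thapsigargin. Cxcl12 was thus high in 4 groups and near 0 in the 2 that held Xist. Csf1, the macrophage growth factor, was at 70.7 and 271 (1.94) and Ccl2 at 42.6 and 54.1 (0.35).

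Trp53, which encodes the tumour suppressor p53, was at 165 FPKM in DMSO and 10.9 with tunicamycin (log2 -3.90). The level was 9.79 in Ago2-/- DMSO and between 176 and 202 in the remaining 3 groups. The list of p53 pathway genes and the Cdkn2 locus had 5 lower and 1 higher of 13 kept, with a median log2 of -0.48. Cdkn1a (p21), the cell cycle inhibitor under p53, was at 66.4 and 19.6 (-1.76), the p53 ligase Mdm2 at 58.0 and 22.9 (-1.34), Ccng1 at 35.6 and 13.0 (-1.45) and Eda2r at 1.98 and 0.161 (-3.00). Other p53 targets were level, such as Bbc3 (PUMA) at 10.5 and 6.97 (-0.58), Zmat3 at 10.2 and 7.90 (-0.37) and Phlda3 at 25.7 and 28.0 (0.13). The higher member was Cdkn2b at 16.9 and 36.5 (1.11), and its neighbour Cdkn2a was at 283 and 261 (-0.12).

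Among BCL2 family and caspase genes 2 were higher and 1 was lower of 15, about as often as the 20.0% of all loci past 2-fold. The BH3-only gene Pmaip1 (NOXA) was at 0.00330 and 4.61 FPKM and Bcl2 at 2.33 and 4.90 (log2 1.04, but 0.82 with a pseudocount of 1 FPKM). Bcl2l11 (BIM) was at 5.36 and 9.98 (0.88). Of 27 cell cycle genes 1 was higher and 1 was lower, both D-type cyclins, with Ccnd1 at 85.7 and 207 (1.28) and Ccnd2 at 56.3 and 14.6 (-1.94). Mki67 (75.4 and 66.8), Top2a (275 and 244) and Pcna (233 and 276) were within 2-fold.

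Genes of the NRF2 pathway, NRF2 being the factor of the oxidative stress response, and other antioxidant genes were higher or level. Of 16 members 9 were higher and none was lower, with a median log2 of 1.05. Gstm1, a glutathione transferase with close relatives, was at 8.64 and 55.3 FPKM (2.66), Gsta4 at 20.1 and 87.7 (2.12), and Nqo1, a quinone reductase, at 0.335 and 4.95 (3.54). Txnrd1, thioredoxin reductase, was at 84.4 and 211 (1.32), Hmox1, heme oxygenase, at 97.1 and 206 (1.09), and Nfe2l2, which encodes NRF2, at 43.3 and 87.0 (1.00). The last stood at the threshold, and was within 2-fold with a pseudocount of 1 FPKM or after centring. Gclm, a subunit of the enzyme that starts glutathione synthesis, was at 579 and 438 (-0.40), while the other subunit Gclc was at 18.5 and 54.5 (1.55). In Ago2-/- DMSO, Gclm was at 674 and Txnrd1 at 228.

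The antioxidant response element (ARE), to which NRF2 binds with small MAF proteins, was searched as TGACNNNGC on both strands. It was held by 5 of 13 members with an entry and by 2 of the 6 higher ones (Nfe2l2 and Txnrd1), beside 10.2% of all windows. That share is of single windows, whereas a member counted if any of its windows matched, so the 2 are not on the same footing. Of 3 Txnrd1 windows the 1 with a match (+ strand) is shown, with the match on the opposite strand in capitals.
Txnrd1, chr10:82858956-82859205: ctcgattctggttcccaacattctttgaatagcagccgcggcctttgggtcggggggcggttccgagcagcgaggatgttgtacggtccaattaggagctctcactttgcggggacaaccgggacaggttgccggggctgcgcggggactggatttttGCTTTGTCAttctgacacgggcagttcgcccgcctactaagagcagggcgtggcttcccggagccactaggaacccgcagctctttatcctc

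Immediate early genes, which answer growth factor signalling within minutes, had 7 higher and 1 lower of 16 kept. Egr1 was at 13.1 and 31.0 FPKM (log2 1.24), Fosl1 at 72.0 and 165 (1.20), Fos at 0.975 and 4.99 (2.24) and Egr3 at 0.410 and 3.14 (2.67). The endothelial-type factor Klf2 was at 10.2 and 1.45 (-2.74), and Jun at 29.3 and 17.7 (-0.72). Of 15 heat shock genes kept 3 were higher, all of them small heat shock proteins. Over all loci 10.7% were higher and 20.0% were past 2-fold in either direction. Hspb1 was at 0.135 and 108 FPKM (8.85), Cryab at 28.5 and 122 (2.09), and Hspb8 was listed at 0 in DMSO and stood at 38.0 with tunicamycin. The cytosolic chaperones Hspa8 (1298 and 1657) and Hsp90aa1 (665 and 701) were within 2-fold.

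**Figure D3:**
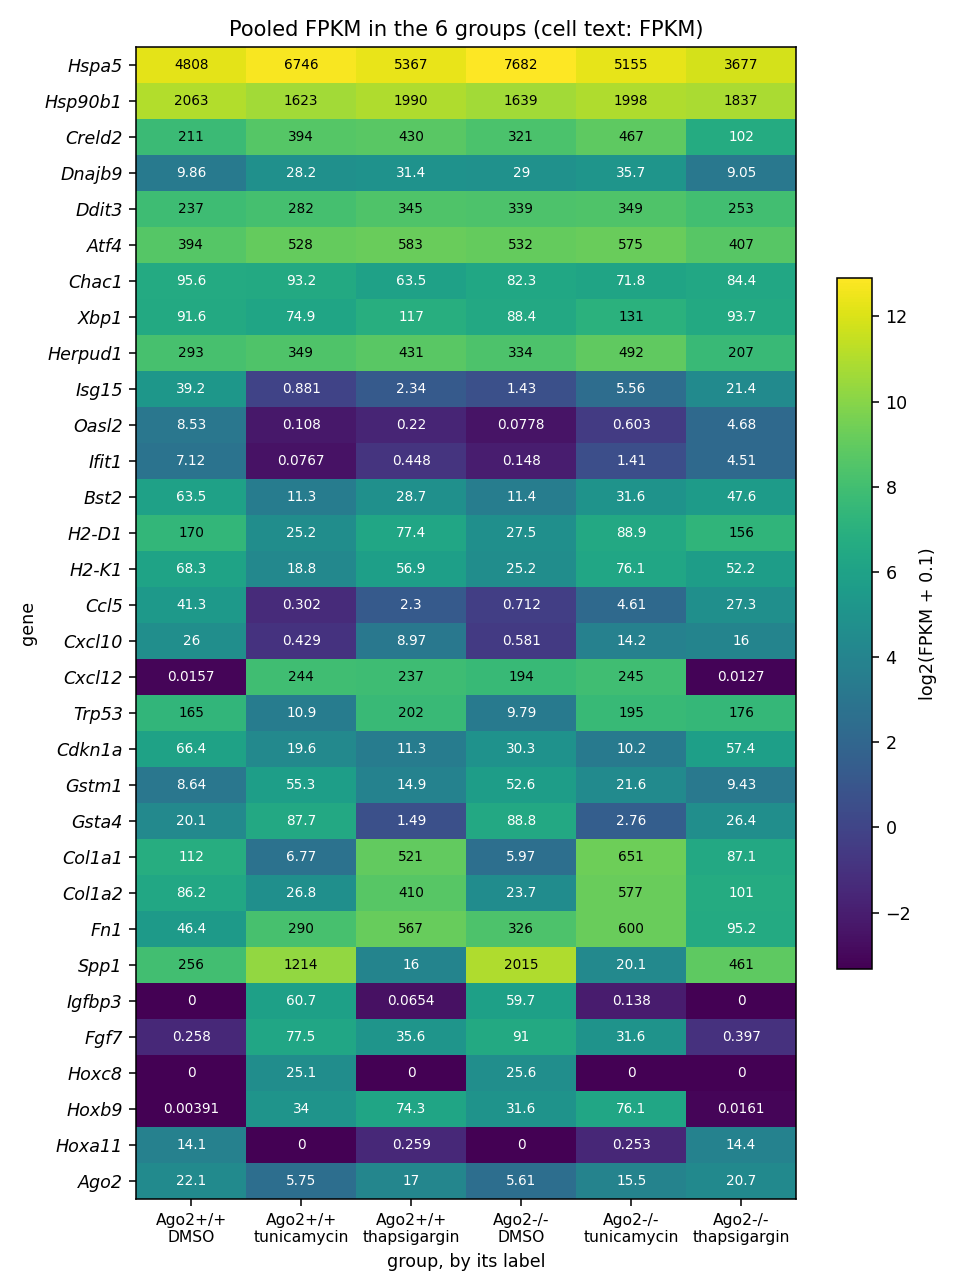
Pooled FPKM of named genes (rows) in the 6 groups (columns, by label), coloured by log2 of FPKM plus 0.1 and printed in each cell. Columns of the Ago2+/+ tunicamycin and Ago2-/- DMSO groups resemble each other, as do those of Ago2+/+ DMSO and Ago2-/- thapsigargin. Trp53, for instance, is at 10.9 and 9.79 in the former pair.

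Matrix genes differed in both directions, where 10.7% of all loci kept were higher and 9.31% lower. Of 16 collagen genes kept of 24, 6 were lower and 3 were higher. The chains of collagen I, the main fibrillar collagen, were among the lower: Col1a1 was at 112 FPKM in DMSO and 6.77 with tunicamycin (log2 -4.03) and Col1a2 at 86.2 and 26.8 (-1.68). Col1a1 was at 521 in Ago2+/+ thapsigargin and, under the Ago2-/- label, 5.97 with DMSO, 651 with tunicamycin and 87.1 with thapsigargin. Col1a1 was thus lowest in the tunicamycin group and Ago2-/- DMSO, and highest in Ago2-/- tunicamycin. Col5a2 was at 97.8 and 11.9 (-3.03), and the network collagen Col4a1 at 98.4 and 56.0 (-0.81). Higher were Col7a1, which forms anchoring fibrils, at 7.43 and 31.7 (2.08), Col4a5 at 17.9 and 43.8 (1.29) and Col12a1 at 0.965 and 2.18 (1.10, but 0.69 with a pseudocount of 1 FPKM).

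Collagen-modifying enzymes had 2 higher and 3 lower of 16 kept (10.7% and 9.31% over all loci). Lox, which crosslinks collagen and elastin, was at 0.00895 FPKM in DMSO and 44.2 with tunicamycin (log2 8.67), whereas its relative Loxl2 was at 4.51 and 0.0405 (-5.04) and Loxl3 at 3.97 and 1.25 (-1.59). The prolyl hydroxylase P4ha1 was at 57.5 and 22.6 (-1.34). Serpinh1 (HSP47), the collagen chaperone of the ER, was at 371 and 562 (0.60).

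Non-collagen matrix glycoproteins were mostly higher, 9 of 15 kept (10.7% over all loci), with 2 lower and a median log2 of 1.15. Fn1, fibronectin, was at 46.4 and 290 FPKM (2.64), Thbs1, thrombospondin, at 19.2 and 97.2 (2.34), and Spp1, osteopontin, at 256 and 1214 (2.24). Mgp, an inhibitor of calcification, was at 0.0194 and 27.0 (7.83) and Fbln1 at 0.152 and 11.3 (5.49). Spp1 reached 2015 in Ago2-/- DMSO, 461 in Ago2-/- thapsigargin and at most 20.1 in the other 2 groups. Sparc was level at 221 and 227 (0.04), and Fbn1, fibrillin, was at 20.2 and 9.86 (-1.03, but -0.97 with a pseudocount of 1 FPKM).

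Proteases and their inhibitors had 4 higher and 2 lower of 10 kept (10.7% and 9.31% over all loci). Timp3, an inhibitor of matrix metalloproteases, was at 0.0261 and 31.1 FPKM (7.95), Plau, the urokinase, at 2.56 and 9.52 (1.86) and Adamts1 at 20.2 and 3.18 (-2.63). Of 5 serpins kept 3 were higher, among them Serpinf1 at 4.42 and 73.7 (4.03), and 1 was lower, Serpinb9b at 1.99 and 0.375 (-2.14). Of 10 contractile genes kept 3 were higher and 2 lower. Acta2, smooth muscle actin, was at 0.644 and 1.75 (1.31, but 0.74 with a pseudocount of 1 FPKM) and Tagln at 2.90 and 0.363 (-2.70), both far below their 1644 and 648 FPKM in Ago2+/+ thapsigargin. Of 7 caveolar genes kept, Cavin2 was lower, at 103 and 1.63 (-5.91), and so was Cavin3 (28.7 and 11.9), while Cav1 was at 161 and 154 (-0.07).

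Among 13 integrin and laminin genes kept 2 were higher and 1 was lower, about as often as the 20.0% of all loci past 2-fold. Itga7, an integrin chain that binds laminin, was at 10.1 and 0.822 FPKM (log2 -3.46) and Itgb8 at 0.0371 and 2 (3.94). The common chain Itgb1 was at 251 and 212 (-0.24). Of 9 small leucine-rich proteoglycans 2 were kept, and Bgn, biglycan, was at 0.667 and 6.24 (3.05), against 498 in Ago2+/+ thapsigargin.

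Growth factors, their binding proteins and receptors were more often higher than lower, 13 against 2 of 26 kept (10.7% and 9.31% over all loci). Their median log2 was 0.94. Igfbp3, which binds IGFs in the medium (chr11:7206086-7213923), was listed at 0 in DMSO and stood at 60.7 FPKM with tunicamycin. It was at 59.7 in Ago2-/- DMSO, at or near 0 elsewhere, with 0.138 in Ago2-/- tunicamycin as the highest of the remaining groups. Fgf7, a fibroblast ligand for epithelial cells, was at 0.258 and 77.5 (7.76), Igfbp7 at 13.9 and 105 (2.91), Vegfa at 41.3 and 106 (1.35) and Bmp4 at 3.35 and 22 (2.68). Kitl, the KIT ligand, was at 19.7 and 2.51 (-2.92) and Pdgfra at 2.62 and 0.488 (-2.21), while Pdgfrb was among the higher.

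EGF receptor ligands were split, with 4 higher and 1 lower of 8 kept in this family (10.7% and 9.31% over all loci). Ereg, epiregulin, was at 20.2 FPKM in DMSO and 0.0409 with tunicamycin (log2 -7.17), whereas Areg, amphiregulin, its neighbour in the genome, was at 3.71 and 34.8 (3.20). Btc was at 0.0618 and 2.69 (4.11), and Hbegf was level at 25.8 and 21.2 (-0.28). Of 8 genes of Wnt signalling kept 3 were higher and 1 was lower. Fzd2, a Wnt receptor, was higher at 4.64 and 15.6 (1.73) and the ligand Wnt10b lower at 19.7 and 2.51 (-2.92).

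Genes of positional identity and of the mesenchymal lineage differed in both directions. Hox genes, which fibroblasts keep on or off according to the body region they came from, had 16 higher and 4 lower of 22 kept. The median log2 of the Hox genes kept was 4.76, but 1.97 with a pseudocount of 1 FPKM. Of the HoxB cluster 9 genes were kept and all 9 were higher, with the sum of the 10 measured at 0.355 FPKM in DMSO and 93.7 with tunicamycin. Hoxb9 was at 0.00391 and 34.0, and Hoxb7 was listed at 0 and stood at 17.2. All 4 HoxC genes kept were higher, Hoxc8 being listed at 0 in DMSO, at 25.1 with tunicamycin, at 25.6 in Ago2-/- DMSO and at 0 in the other 3 groups. Hoxc6 was at 0.0632 and 19.6. In DMSO 8 of the HoxB genes kept and all 4 of the HoxC genes kept were at 0.1 FPKM or less. These genes were kept through their tunicamycin value alone, and so could only be called higher.

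Posterior genes of the HoxA cluster and Hoxd13, the 1 HoxD gene kept, had the opposite order. Hoxb13, the posterior gene of the HoxB cluster, was among the higher (log2 3.67). Hoxa11 was at 14.1 FPKM in DMSO and listed at 0 with tunicamycin, and at 14.4 in Ago2-/- thapsigargin and at most 0.259 in the other 3. Hoxd13, the gene at the digit end of its cluster, was at 6.03 and listed at 0, with 11.3 in Ago2-/- thapsigargin. Hoxa9 was at 20.7 and 0.673 (log2 -4.75) and Hoxa10 at 16.5 and 5.18 (-1.66), while Hoxa7 was at 7.66 and 21.8. Hoxa11, Hoxd13 and Hoxa9 were kept through their DMSO value alone, and so could not be called higher. Of the 39 Hox genes listed, 8 shared loci, and 9 with their own locus were below 1 FPKM in both groups.

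**Figure D4:**
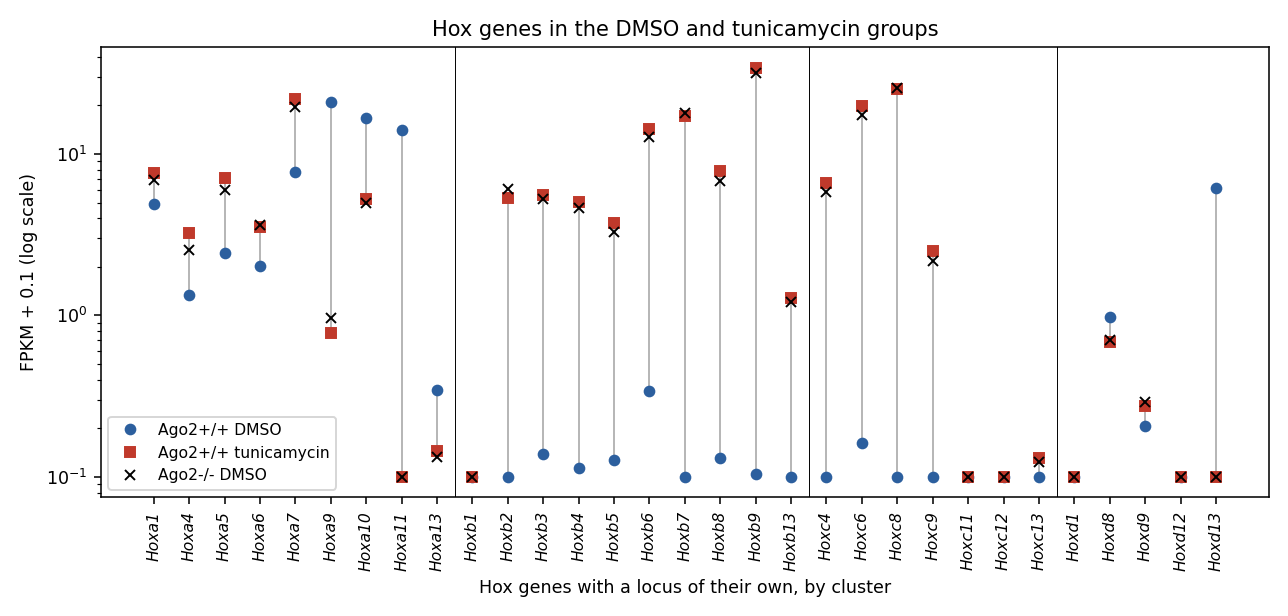
FPKM plus 0.1 (y axis, log scale) of the 31 Hox genes with their own locus (x axis, by cluster A to D) in the DMSO group (circles), the tunicamycin group (squares) and the Ago2-/- DMSO group (crosses). HoxB and HoxC genes are near the floor in DMSO and reach up to 34.0 FPKM with tunicamycin, and the crosses fall on the squares.

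Of 29 mesenchymal transcription factors kept 16 were higher and 6 lower (10.7% and 9.31% over all loci). Prrx2, a limb and skeletal factor, was at 9.40 and 79.5 FPKM (log2 3.07), Foxf2 at 0.304 and 16.4 (5.35) and Runx2, the bone factor, at 8.14 and 20.6 (1.33). Tbx5, the forelimb factor, was at 3.98 and listed at 0, and so were Alx1 (2.98), Meox2 (2.60) and Msx2 (1.72). Twist1 was at 21.5 and 11.7 (-0.87) and Zeb1 at 14.1 and 12.5 (-0.18).

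Markers of other lineages differed too, at few genes. Myf5, a myogenic factor, was listed at 0 in DMSO and stood at 18.9 FPKM with tunicamycin and 11.8 in Ago2-/- DMSO, while Myod1, Myog, Ckm and Actn2 stayed below 1. Sox2 was listed at 0 and stood at 5.72, with Pou5f1, Nanog and Zfp42 below 1. The neuronal microtubule gene Map2 was at 23.2 and 0.00243 (log2 -7.83). Of 5 imprinted genes kept with their own locus 4 were higher, with Peg10 at 1.22 and 25.3 (4.27) and Ndn listed at 0 and at 11.2, and Phlda2 was lower at 7.43 and 3.63 (-1.01, but -0.86 with a pseudocount of 1 FPKM). Snrpn, which shared a locus, was at 7.25 and 0.0828 (-5.33).

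The extremes over all loci with 1 symbol and at least 5 FPKM in 1 group were in part small RNAs. Of the 15 highest, Snord82, Snord35a and Snord43 were listed at 0 in DMSO and at 971, 81.6 and 30.4 FPKM with tunicamycin. Of the 15 lowest, Snord70, Snord13 and Snora30 were listed at 0 with tunicamycin. Snord82 and Snord70 were listed at 0 in all other groups, and FPKM of such short RNAs rests on few fragments. Among protein-coding genes, Cyp1b1, an oxidase of hormones and xenobiotics, was at 0.0200 and 132 (log2 10.10), Aldh3a1, an aldehyde dehydrogenase, at 0.0434 and 113 (9.62), and the centrosome gene Cep126 at 0.126 and 182 (9.66). Nid1, nidogen of the basement membrane, was at 0.0151 and 64.7 (9.14), Cd24a at 0.00444 and 60.6 (9.18) and the receptor Ltbr at 0.00376 and 41.2 (8.64).

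Of protein-coding genes Ucp2 was lowest, an uncoupling protein of mitochondria, at 57.2 FPKM in DMSO and 0.0223 with tunicamycin (log2 -8.87). Fhl1 was at 23.4 and 0.0518 (-7.28), Epb41l3 at 46.6 and 0.226 (-7.16), Slc43a3 at 14 and 0.0325 (-6.74) and the kinase Stk39 at 16.4 and 0.0642 (-6.65). Fam198a (14.7) and Tmem37 (11.7) were listed at 0 with tunicamycin. Erdr1 was at 13.4 and 0.0166 (-6.86). For each of these genes the Ago2-/- DMSO value was at most 0.101 FPKM.

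The most abundant loci were mitochondrial transcripts, chaperones and translation factors. The locus of mt-Atp6, mt-Atp8 and mt-Co3 was at 6123 and 27101 FPKM (log2 2.15) and mt-Co2 at 1930 and 9666 (2.32), whereas mt-Co1 was at 4840 and 8051 (0.73). Eef1a1, the elongation factor, was at 5894 and 6053 (0.04). The predicted genes Gm10060 (7276 and 3181) and Gm10180 (1026 and 3626) may share reads with copies elsewhere.

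Several housekeeping groups had no member past 2-fold. None of 33 proteasome, 69 nuclear respiratory chain, 23 cholesterol synthesis or 15 autophagy genes kept was past 2-fold, with medians of -0.0015, -0.16, 0.06 and 0.01. Of 75 ribosomal protein loci kept 4 were higher and 1 lower, with a median log2 of 0.03. The exceptions were wide: Rpl29 was at 4.01 and 393 FPKM (6.58), Rps2 at 124 and 2134 (4.10) and Rpl30 at 618 and 155. Rpl29 was at 4.54 in Ago2-/- thapsigargin and at 394 to 485 in the remaining groups, and Rps2 likewise at 147 and at 1361 to 2270. Rpl30 was at 165 in Ago2-/- DMSO and at 447 to 607 in the remaining groups. Such genes have many processed copies among which reads can be divided, which was not tested. Lysosomal and glycolytic genes were past 2-fold about as often as the 20.0% of all loci. Of 18 lysosomal genes kept 1 was higher and 2 were lower, with the membrane protein Lamp1 at 401 and 176 (-1.19). In glycolysis 2 were higher and 1 lower of 16 kept, with Eno1 at 599 and 1474 and Tpi1 at 539 and 234 (-1.20).

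Replication-dependent histone genes had 9 lower and 2 higher of 19 kept of 65, all at low levels. Hist1h2bc was at 13.3 and 5.95 FPKM (log2 -1.15) and Hist1h2bq at 11 and 1.06 (-3.26). Of the microRNA and Argonaute machinery 11 genes were kept, and beside Ago2 the GW182 gene Tnrc6a was past 2-fold, at 21.9 and 45.3 (1.04). These genes were past 2-fold about as often as all loci (20.0%). Dicer1 was at 24.9 and 32.0 (0.36), Drosha at 32.2 and 45.9 (0.51) and Ago1 at 8.28 and 10.7 (0.37).

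The study chose 3 transcripts from these libraries as candidates for Argonaute-dependent decay, so their direction here is not independent evidence. The study also followed them in separate assays: qRT-PCR, AGO2 crosslinking with immunoprecipitation, and decay after a block of transcription. It reported AGO2-dependent results for all 3 there, and those assays are not examined here. All 3 were lower with tunicamycin. Nov (Ccn3), a secreted matrix protein, was at 2.45 and 0.0906 FPKM (log2 -3.74), with 0.601, 0.0615, 0.869 and 2.85 in Ago2+/+ thapsigargin and in Ago2-/- DMSO, tunicamycin and thapsigargin. Mertk, a receptor that recognises dying cells, was at 2.53 and 0.782 (-1.58), with 0.684, 0.597, 0.991 and 2.96 in the same order. C1rl, a complement protease-like protein, was at 1.19 and 0.267 (-1.81), with 0.359, 0.161, 0.785 and 0.957 likewise. In each case the DMSO and Ago2-/- thapsigargin groups were the highest 2 of 6. With a pseudocount of 1 FPKM, Mertk (-0.99) and C1rl (-0.79) were within 2-fold. Rpl19, the reference transcript of the study, was at 1285 and 1467 (0.19).

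The relatives of these genes differed as well. Of the TAM receptors and ligands, Pros1 was at 11.7 and 0.681 FPKM (-3.91), Gas6 at 0.00336 and 5 (5.63), and the receptors Axl (180 and 226) and Tyro3 (13.6 and 9.11) were within 2-fold. Of 3 complement genes kept 2 were lower, C1ra being at 2.37 and 0.377 (-2.38).

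The same contrast under the other genotype label shares no library with this one. Between Ago2-/- tunicamycin and Ago2-/- DMSO, 3083 of 12399 loci (24.9%) were past 2-fold. Over the 12257 loci kept here, 1264 were higher in it (10.3%) and 1449 lower (11.8%). Of the 1308 loci higher here, 104 (7.95%) were higher there, 684 (52.3%) were lower and 520 were within 2-fold. Of the 1141 lower here, 604 (52.9%) were higher there, 85 (7.45%) were lower and 452 were within. The opposite direction was thus the commoner, and the closeness of the tunicamycin group to Ago2-/- DMSO enters these counts, since the former is the numerator here and the latter the denominator there. ER chaperones had a median log2 of 0.10 here and 0.29 there, and ISGs -3.28 and 1.66.

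**Figure D5:**
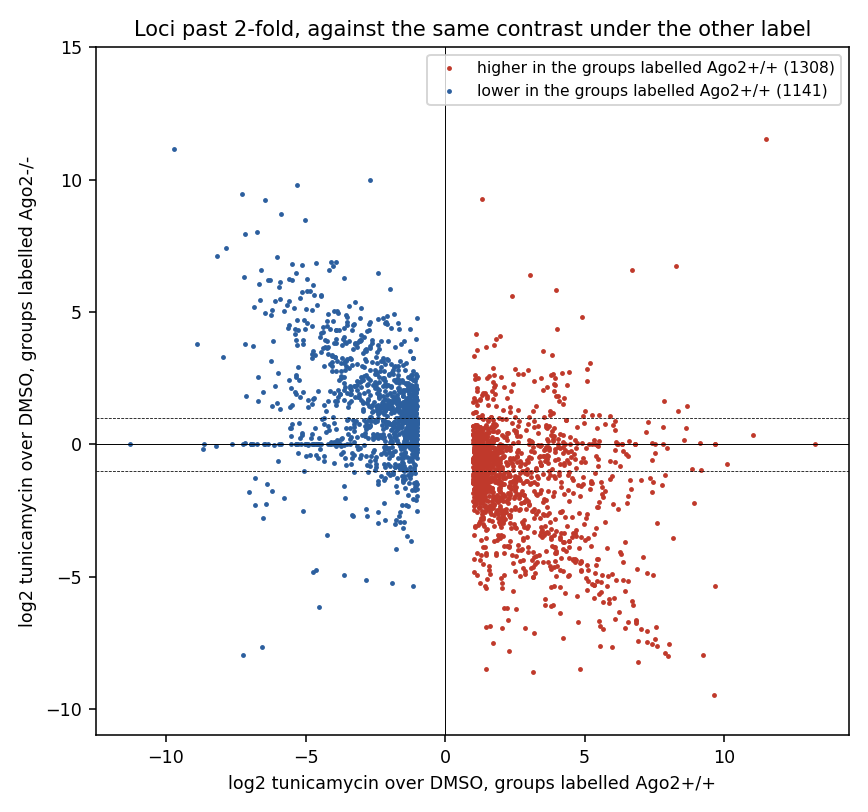
Log2 of tunicamycin over DMSO in the groups labelled Ago2+/+ (x axis) and Ago2-/- (y axis) for the 2449 loci past 2-fold in the former. Red points are the 1308 higher and blue points the 1141 lower loci, and dashed lines mark 2-fold on the y axis. The upper left and lower right quadrants hold the most points, 604 and 684 of them past 2-fold on both axes.

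Over these 2449 loci the position of each other group was taken as nearer to the tunicamycin or to the DMSO value on the log2 scale. The Ago2-/- DMSO group was nearer to tunicamycin at 2336 loci (95.4%), and the Ago2-/- thapsigargin group at 245. The Ago2+/+ thapsigargin group was nearer to tunicamycin at 1067 (43.6%) and Ago2-/- tunicamycin at 1032 (42.1%). Between Ago2+/+ thapsigargin and the same DMSO group 2331 of 12236 loci (19.1%) were past 2-fold, a comparison that shares its control with this one. In Ago2+/+ thapsigargin Hspa5 was at 5367, Isg15 at 2.34, Col1a1 at 521, Igfbp3 at 0.0654 and Cxcl12 at 237 FPKM, against 6746, 0.881, 6.77, 60.7 and 244 in the tunicamycin group.

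Between the tunicamycin group and Ago2-/- DMSO, no member of the ER chaperone, disulfide isomerase, IRE1, PERK, N-glycan, ISG, Hox or ribosomal lists was past 2-fold. Among ER chaperones the largest difference was Creld2, at 394 and 321 FPKM (absolute log2 0.30), and among Hox genes Hoxa4, at 3.14 and 2.44 (0.35). Exceptions in other lists included Ccl5 (0.302 and 0.712) and Fas, a death receptor (1.34 and 4.19). The respiratory chain gene Uqcrc1 differed more, at 0.996 and 9.87 FPKM (absolute log2 3.19). Of 19 histone genes 4 were past 2-fold, the largest difference being Hist2h3b at 0.0392 and 1.41 (3.44).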

How the data were processed

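The authors sequenced RNA of 18 libraries and deposited 1 table with a pooled FPKM per group and locus, together with fold changes, test statistics, p-values and q-values of their own comparisons, none of which was used. FastQC 0.11.7, HISAT2 2.1.0, StringTie 1.3.4d, Cuffdiff 2.2.1 and build GRCm38 are named in the submitters' processing notes. Neither the scaling of FPKM nor the use of strand was stated in the sources read, so genes on opposite strands, near-identical copies and loci with several symbols (356 of those kept) are uncertain. The table holds 772485 rows, 51499 loci in 15 pairs of groups, and 0 columns of single samples were left unused.

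Groups followed the labels. With 1 deposited FPKM value per group there is no SD and no test. The log2 difference used a pseudocount of 0.1 FPKM, a minimum of 1 FPKM in either group and a limit of 2-fold, with pandas 2.3.3, numpy 2.4.6 and matplotlib 3.10.9 in python 3.11.15, after a check on simulated data. Alternatives were other pseudocounts, minimums, scalings and sets of loci. Members and lists were chosen with earlier results of these data known. Named were the label and study genes, the 4 largest differences past 2-fold and the 2 most abundant members of each list, the 15 highest and 15 lowest loci with 1 symbol, and the 10 most abundant loci. Other members were named after their values were seen, for their roles. Some list members are not reported here.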

Additional observations from a re-analysis of the deposited data

How the results depend on the processing

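No paired analysis was possible because the table holds 1 pooled value per group, and for the same reason no replicate could be left out. Of the main count of 2449 loci past 2-fold, 1895 were left with a pseudocount of 1 FPKM and 1894 without copy-like loci and ribosomal proteins, and centring or upper-quartile scaling gave 2447 and 2446. With a pseudocount of 1 FPKM, 359 loci were higher and 264 lower by 4-fold. With no minimum the count was 4000 (2122 higher, 1878 lower). With at least 1 FPKM in both groups it was 1201 (661 higher, 540 lower, and 165 and 114 by 4-fold), a setting that removes loci low in 1 group by construction. With at least 10 FPKM in either group it was 949 (548 higher, 401 lower, and 234 and 146 by 4-fold). Of 46 gene lists with at least 5 members kept, 10 had a median past 2-fold, against 6 with no minimum, 4 with 1 FPKM in both groups and 6 with 10 FPKM. The median log2 turned sign for epithelial markers with no minimum (0.67), for neural markers (0.012), genes the study named (0.19) and IRE1 substrates (-1.02) with 1 FPKM in both, and for the last 2 lists with 10 FPKM (0.19 and -1.13), since fewer members were then kept. Higher loci made up 52.4% to 57.7% of those past 2-fold over all settings, against 53.4%. The share of loci at which Ago2-/- DMSO lay nearer to tunicamycin was 95.7% with a pseudocount of 1 FPKM and 95.9% with 10 FPKM, both chosen after seeing the data. Depth per library is unknown, so the error of low FPKM values cannot be stated.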

Other observations

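Mitochondrial messenger RNAs were chosen for description after their values were seen. Of 10 mitochondrial loci, mt-Co2, mt-Nd3, the locus of mt-Atp6, mt-Atp8 and mt-Co3 and that of mt-Nd4 and mt-Nd4l were past 2-fold between tunicamycin and DMSO. The same 4 were the mitochondrial loci past 2-fold between the tunicamycin group and Ago2-/- DMSO. mt-Nd3, a subunit of complex I, was at 310 FPKM in DMSO, 1983 with tunicamycin and 642 in Ago2-/- DMSO. mt-Co2, a subunit of cytochrome oxidase, was at 1930, 9666 and 3214 FPKM in these groups. The other loci of the same genome were closer, mt-Nd1 being at 3054, 5346 and 5647 FPKM and mt-Cytb at 2489, 4233 and 4478.

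Past 2-fold in the same direction under both genotype labels lay 104 higher and 85 lower loci. These were 7.95% of the loci higher and 7.45% of those lower under the Ago2+/+ label. Over all loci kept, 10.3% were higher and 11.8% lower under the Ago2-/- label, so a shared direction was rarer than over all loci. The loci named here were likewise chosen after their values were seen. By the rule used for the extremes, with at least 5 FPKM under both labels, 24 of the shared loci were higher and 14 lower. Serpinf1, a secreted serpin, stood under the Ago2+/+ label at 4.42 FPKM with DMSO and 73.7 with tunicamycin, and under the Ago2-/- label at 80.9 and 289. Cdkn1a was at 66.4 and 19.6 FPKM, and at 30.3 and 10.2. Ern1, the sensor IRE1, was at 42.8 and 18.4 FPKM, and at 20.8 and 9.41.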
